A study of Mus musculus with 12 samples.

Results

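Krt8, Krt18, Krt19 and Krt14 are the keratins by which the layers of the mammary epithelium are usually told apart, and they are described here across 12 RNA and ribosome footprint libraries. They were chosen by name, with earlier results of these data known, as 4 of the 7318 genes in the deposited count table. All 4 passed the filters of every test. The libraries came from mammary glands of female FVB/N mice at 4 weeks of age that carried both MMTV-Wnt1 and MMTV-iFgfr1. MMTV is a viral promoter active in mammary epithelium, and iFgfr1 is an FGF receptor 1 that the dimerizing compound AP20187 switches on. Mice were injected intraperitoneally with AP20187 (+iFGFR1) or with vehicle (-iFGFR1) 6 h before collection. Digested glands were enriched for epithelial cells by short spins without a sort, and each pellet gave an RNA library and a footprint library, 3 of each per treatment. All groups carried the Wnt1 transgene and the receptor transgene, so a response of glands without Wnt1 was not part of the design. No group received AP20187 without the receptor, so effects of the compound and of the receptor cannot be told apart. The comparisons ask how switching on the receptor for 6 h altered the level of these transcripts, their ribosome footprints, and the ratio of footprints to RNA, called translational efficiency.

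Keratins are the intermediate filament proteins of epithelial cells. A filament forms only when a type I keratin pairs with a type II keratin. In the mammary gland the luminal cells that line the duct hold keratin 8, of type II, paired with keratin 18 or keratin 19, both of type I. The myoepithelial or basal cells around them hold keratin 14, of type I, paired with keratin 5, of type II. Keratin 19 is the smallest keratin and lacks most of the tail domain. Stability of a keratin protein depends on its partner, while RNA and footprints report on each gene alone.

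In the mouse genome the genes of type I keratins lie together on chromosome 11 and those of type II keratins on chromosome 15, and Krt18 is the type I gene that sits at the edge of the type II group. By the GENCODE M21 annotation of build GRCm38, Krt8 (ENSMUSG00000049382.10, chr15:101996698-102004482, minus strand) has 9 exons. Krt18 (ENSMUSG00000023043.7, chr15:102028180-102032027, plus strand) has 7 exons and lies 23697 bp away, with the 2 genes read in opposite directions away from each other. Krt19 (ENSMUSG00000020911.14, chr11:100140810-100148665, minus strand) has 6 exons. Krt14 (ENSMUSG00000045545.8, chr11:100203162-100207548, minus strand) has 8 exons and lies 54496 bp from Krt19. Footprints are short, so stretches that 2 genes share word for word matter for how their counts can be read. A window of 28 bases, about the length of a footprint, was moved along each coding sequence and looked up in all other annotated transcripts. Of the Krt8 windows 45.5% (656 of 1443) also occurred in another gene, and 645 of them in the processed pseudogene Krt8-ps. Of the Krt14 windows 37.5% (535 of 1425) occurred elsewhere, 327 in Krt16, 210 in Krt17 and 73 in Krt42. The share was 16.5% for Krt18 (205 of 1242, mostly a processed pseudogene, Gm5200) and 2.12% for Krt19 (25 of 1182). The longest identical run was 299 bases between Krt8 and Krt8-ps, 134 bases between Krt14 and Krt16, 71 bases between Krt14 and Krt17, and 32 bases between Krt14 and Krt19. The sources used here do not say whether reads that match several places were dropped or assigned. The following 60-base coding stretches show the point, read 5′ to 3′ along the transcript. The first, bases 385 to 444 of the Krt8 coding sequence, is identical in Krt8-ps, so that no footprint within it can be placed. The other 4 are the best ungapped matches in Krt14 (bases 306 to 365), Krt16 (282 to 341), Krt17 (195 to 254) and Krt19 (192 to 251), with capitals at the bases that differ from Krt14.
Krt8: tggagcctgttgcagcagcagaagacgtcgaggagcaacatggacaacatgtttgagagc
Krt14: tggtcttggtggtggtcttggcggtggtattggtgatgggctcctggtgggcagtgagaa
Krt16: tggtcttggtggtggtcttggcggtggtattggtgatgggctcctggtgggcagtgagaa
Krt17: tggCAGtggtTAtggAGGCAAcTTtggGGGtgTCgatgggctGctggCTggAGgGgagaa
Krt19: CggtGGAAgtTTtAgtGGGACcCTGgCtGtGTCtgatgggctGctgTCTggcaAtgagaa
Krt16 differs from Krt14 at 0 of these bases, Krt17 at 24 and Krt19 at 26. Counts of Krt8 and Krt14 are therefore uncertain to the extent that reads from such stretches were lost or shared, and those of Krt19 hardly are.

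Totals over the 7318 genes were 94513818 to 251874393 counts in RNA libraries and 1772969 to 11018709 in footprint libraries, the deepest being AP20187 footprint library 1. A floor of 3 counts corresponds to 0.0119 to 0.0317 CPM (counts scaled to a common library size) in RNA and 0.272 to 1.69 CPM in footprints, so all 4 keratins were far above it in every library. Log2 CPM correlated between RNA replicates at 0.961 to 0.989 and between footprint replicates at 0.874 to 0.968, across genes. Fgfr1 RNA, which can hold transgene reads, stood at 756, 1101 and 575 CPM in AP20187 libraries 1, 2 and 3, against 339.9, 366 and 268 CPM in vehicle libraries. RNA of Wnt1, the gene of the other transgene, stood at 184, 313 and 165 CPM with AP20187, against 30.6, 45.0 and 11.2 CPM with vehicle, so both differed between the groups. The part of the Wnt1 difference in the keratin changes was not tested. Together the 4 keratins took 0.584 to 0.785% of RNA counts with AP20187 and 0.581 to 0.618% with vehicle. They made up 69.8 to 77.6% of all keratin RNA counts with AP20187 and 66.0 to 67.5% with vehicle. Of the luminal and basal marker lists, 18 of 30 and 22 of 30 genes were in the table, and none of them was at 0 in all libraries of a group.

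At the RNA level the 4 keratins divided into 2 pairs. With AP20187 the luminal partners Krt8 and Krt18 rose by similar amounts, and the luminal Krt19 and the basal Krt14 fell by similar amounts. The division therefore did not follow the luminal and basal layers, since Krt19 is counted as luminal and moved opposite to Krt8 and Krt18. All 4 members passed the threshold of an adjusted p under 0.05 (edgeR's quasi-likelihood test), 2 higher and 2 lower, while 26.2% of the 7314 genes tested passed, 12.4% higher and 13.9% lower. The median log2 fold change over all genes was 0.01. Since the 4 were chosen with earlier results of these data known, their calls are not independent of those results. In these bulk samples more or fewer cells of a type and more or less RNA per cell cannot be told apart.

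Krt8, the type II keratin of simple epithelia, had 2747, 1891 and 3148 CPM in AP20187 RNA libraries 1, 2 and 3, against 1323, 1289 and 891 CPM in vehicle libraries 1, 2 and 3. The groups did not overlap, with AP20187 library 2 the lowest of its group and vehicle library 3 the lowest of all 6. The log2 fold change was 1.15 ± 0.24 (SE), a 2.22-fold rise, with an adjusted p of 0.0146. Krt18, its type I partner, had 2487, 1839 and 2988 CPM with AP20187, against 1321, 1436 and 1060.4 CPM with vehicle. Library 2 was again lowest among the AP20187 libraries and library 3 among the vehicle libraries, and the groups did not overlap. The rise was 0.94 ± 0.22 on the log2 scale, or 1.92-fold, with an adjusted p of 0.0199.

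Krt19, the tail-less type I keratin of luminal cells, had 290.2, 377 and 359 CPM with AP20187, against 847, 684 and 723 CPM with vehicle. Every AP20187 library was below every vehicle library, and the spread inside each group was small beside the distance between them. The log2 fold change was -1.13 ± 0.16, which leaves 0.455 of the vehicle level, with an adjusted p of 0.00660. Krt14, the type I keratin of the basal layer, had 1034, 1543 and 1483 CPM with AP20187, against 2762, 2507 and 3339 CPM with vehicle. These groups did not overlap either, and AP20187 library 1 was the lowest of the 6. Its log2 fold change was -1.08 ± 0.21, or 0.472 of the vehicle level, with an adjusted p of 0.0116.

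The falls held in every refit that left out a library, with adjusted p-values of up to 0.0258 for Krt19 and 0.0472 for Krt14. The rises were less secure. Krt8 had an adjusted p of 0.0595 without vehicle library 3, and Krt18 had 0.0655 without vehicle library 1, 0.0858 without vehicle library 3 and 0.0593 without AP20187 library 1, with the direction kept each time.

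**Figure D1:**
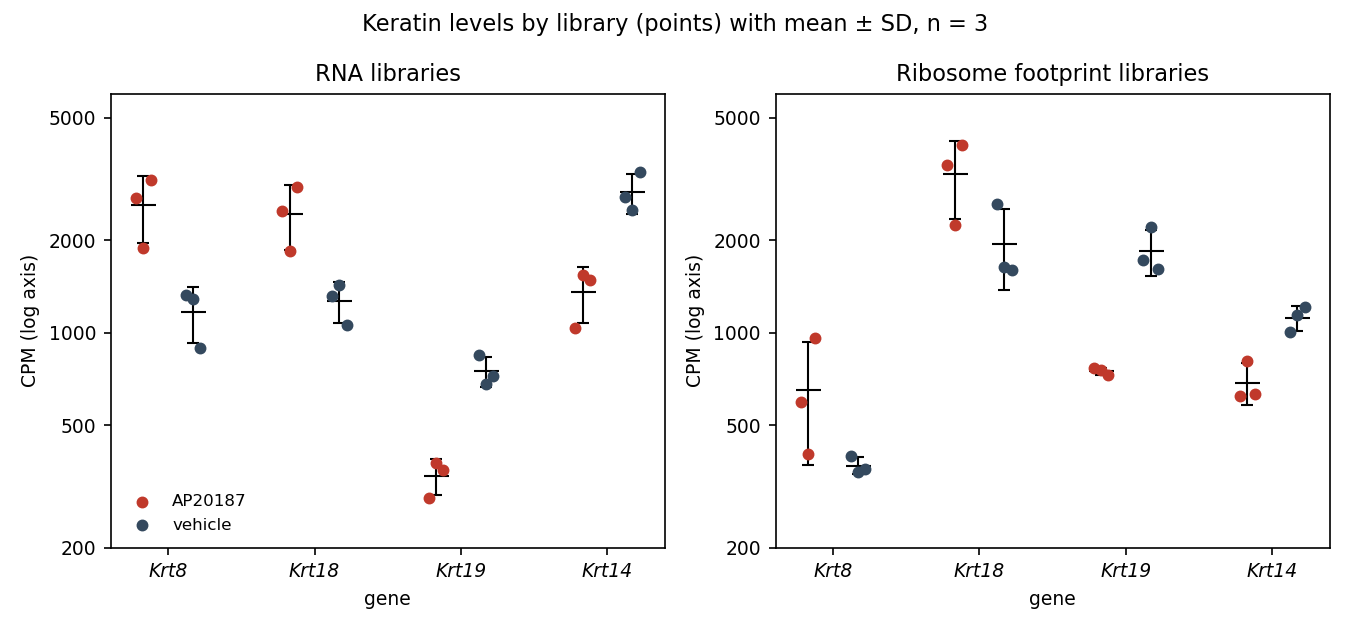
CPM on a log axis for each keratin in the RNA libraries (left panel) and the footprint libraries (right panel), with a point per library, AP20187 left of vehicle, and bars for the mean ± SD of 3. In RNA no gene has overlapping groups. In footprints the Krt18 groups overlap, and Krt19 with AP20187 spans only 728 to 767 CPM.

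Since transcripts differ in length, levels are set side by side between genes as CPM per kilobase of transcript. With AP20187, Krt18 was highest at 1697 ± 401 (SD, n = 3), followed by Krt8 at 1326 ± 328, Krt14 at 797 ± 164 and Krt19 at 217 ± 29.1. This order was the same in all 3 AP20187 libraries, although the ranges of Krt18 (1280.1 to 2079) and Krt8 (966 to 1608) overlapped. With vehicle, the order began with Krt14 at 1689.8 ± 251, then Krt18 at 886 ± 134, Krt8 at 596 ± 123 and Krt19 at 477 ± 54.1. Krt8 and Krt19 changed places in vehicle library 3, and their ranges overlapped (455 to 676 for Krt8, 434 to 538 for Krt19). The basal keratin was thus the highest of the 4 in each vehicle library and below both Krt18 and Krt8 in each AP20187 library.

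In ribosome footprints the 4 keratins had the same directions as in RNA, and the test called Krt19 alone. A single member called of 4 compares with 2.54% of the 7041 genes tested, 0.937% higher and 1.60% lower, and the median over all genes was 0.03. The footprint libraries were shallower and agreed less well, and 1160 genes had an unadjusted p under 0.05 where 179 passed the adjusted threshold.

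Krt19 had 767, 758 and 728 CPM in AP20187 footprint libraries 1, 2 and 3, against 1721, 2211 and 1614 CPM in vehicle libraries. The AP20187 libraries lay close together and all were below the vehicle libraries, of which library 2 was highest. Its log2 fold change was -1.30 ± 0.26, or 0.406 of the vehicle level, with an adjusted p of 0.0309. Leaving out any library other than AP20187 library 3 took it above the threshold, with adjusted p-values of 0.0551 to 0.132 and log2 fold changes of -1.39 to -1.14. Krt14 had 624, 812 and 631 CPM with AP20187, against 1004, 1145 and 1209 CPM with vehicle. The groups did not overlap, and the log2 fold change of -0.70 ± 0.25 did not pass (adjusted p = 0.188). With the replicate number as a block, the value was -0.71 ± 0.21 and passed at an adjusted p of 0.0448. The labels name no batch or pairing for these numbers. Same-numbered footprint libraries of the treatments deviated together only weakly (r of 0.15, 0.26 and 0.33 across genes). The block raised the calls over all genes to 353 higher and 362 lower, against 66 and 113 without it.

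Krt8 had 598, 403 and 959 CPM in AP20187 footprint libraries, against 397, 353 and 360.0 CPM in vehicle libraries. The vehicle libraries were close together and the AP20187 libraries wide apart, with AP20187 library 2 just above the highest vehicle library. Its log2 fold change of 0.82 ± 0.32 did not pass (adjusted p = 0.224, and 0.0744 with the block) and was 0.43 without AP20187 library 3. Krt18 had 3503, 2246 and 4077 CPM with AP20187, against 2615, 1633 and 1604 CPM with vehicle. Here the groups overlapped, since vehicle library 1 exceeded AP20187 library 2. The log2 fold change of 0.75 ± 0.32 did not pass either (adjusted p = 0.271, and 0.0628 with the block).

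Whether the footprint response differed from the RNA response was tested in a fit over all 12 libraries. This change in translational efficiency passed for 0 of the 4 keratins and for 0 of 7315 genes (0%) with edgeR. At an unadjusted p under 0.05 there were 350 genes, and DESeq2 called 8 higher and 2 lower. The log2 differences were -0.38 ± 0.44 for Krt8, -0.24 ± 0.41 for Krt18, -0.21 ± 0.28 for Krt19 and 0.33 ± 0.31 for Krt14, with adjusted p-values of 0.988 to 0.990. Each was about as large as its standard error or smaller. With 0 calls over all genes, a p that misses the threshold here does not show that translational efficiency was equal.

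Within a treatment, by contrast, the values of footprints relative to RNA lay far apart for the 4 keratins, and in the same order under AP20187 and under vehicle. Krt19 had more footprints than its RNA level, Krt8 and Krt14 had fewer, and Krt18 lay between them. With AP20187 3 of the 4 passed the test, where 39.9% of 7315 genes passed, 19.4% with more and 20.5% with fewer footprints. With vehicle all 4 passed, where 50.9% of genes did, 26.7% with more and 24.2% with fewer. The ratios by pellet take RNA and footprint libraries of the same number together. Such libraries deviated together with AP20187 (r of 0.45, 0.52 and 0.37 across genes) and less with vehicle (0.05, 0.08 and 0.33), where footprint library 1 was closest to RNA library 2, so single vehicle ratios are less sure, while the fitted values use no pairing. Krt8 had log2 footprints over RNA of -2.11, -2.13 and -1.61 in AP20187 pellets 1, 2 and 3 and -1.59, -1.73 and -1.14 in vehicle pellets. All 6 pellets were far below 0, and the fitted values were -1.89 ± 0.32 with AP20187 (adjusted p = 4.24e-04) and -1.51 ± 0.32 with vehicle (adjusted p = 0.00137). Krt14 had -0.64, -0.82 and -1.13 with AP20187 and -1.31, -0.99 and -1.30 with vehicle. Its fitted values were -0.88 ± 0.22 (adjusted p = 0.00640) and -1.21 ± 0.22 (adjusted p = 5.23e-04).

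Krt19 was on the other side in all 6 pellets, with 1.50, 1.11 and 1.12 with AP20187 and 1.17, 1.83 and 1.32 with vehicle. The fitted values were 1.23 ± 0.20 with AP20187 (adjusted p = 3.13e-04) and 1.44 ± 0.20 with vehicle (adjusted p = 6.12e-05). Krt18 had 0.59, 0.39 and 0.55 with AP20187 and 1.13, 0.32 and 0.76 with vehicle. Its fitted value of 0.53 ± 0.29 did not pass with AP20187 (adjusted p = 0.170), and that of 0.77 ± 0.29 passed with vehicle (adjusted p = 0.0424). That vehicle call was lost without any of 7 single libraries, with log2 values down to 0.42 and an adjusted p of up to 0.271, both values without vehicle footprint library 1. These ratios were made by scaling both assays jointly, so that the median gene lay at 0.00 with AP20187 and 0.06 with vehicle. They were not corrected for length, and the coding part was 1470 of 1958 transcript bases for Krt8, 1269 of 1437 for Krt18, 1209 of 1576 for Krt19 and 1452 of 1698 for Krt14.

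The keratins with the most shared windows, Krt8 and Krt14, were those with fewer footprints than RNA, and Krt19, with the fewest, had the highest ratio. With 4 genes this is given as a description, and the part of lost or shared reads in the ratios was not tested. Whole transcripts, which RNA reads cover, held shared windows too. Their shares were 37.8% for Krt8, 32.1% for Krt14, 14.5% for Krt18 and 1.61% for Krt19. Footprint levels can be bounded by supposing that all of them came from windows found in no other annotated gene. Per 1000 such windows, Krt8 had 829.9 ± 358 CPM with AP20187 and 471 ± 30.2 CPM with vehicle (SD, n = 3 each), over 787 windows. Krt18 had 3158 ± 903 CPM with AP20187 and 1881 ± 555 CPM with vehicle, over 1037 windows. The mean of Krt8 was below that of its partner Krt18 on this scale in both groups. Krt19 had 649 ± 17.3 CPM with AP20187 and 1598 ± 275 CPM with vehicle per 1000 such windows, and Krt14 had 774 ± 119.7 CPM with AP20187 and 1257 ± 118 CPM with vehicle. By these means Krt8 came second with AP20187, above Krt14 and Krt19, and last with vehicle.

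**Figure D2:**
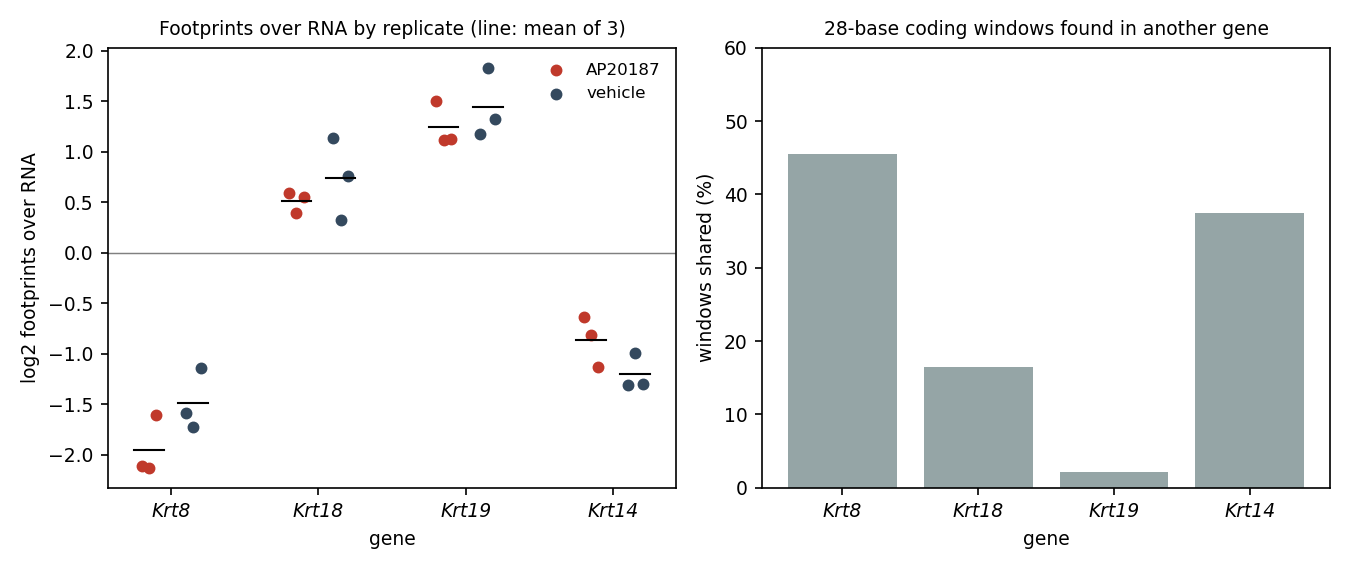
Left, log2 footprints over RNA for each pellet (points; line, mean of 3), AP20187 left of vehicle. Right, percentage of 28-base coding windows that also occur in another annotated gene. Krt8 and Krt14 lie below 0 in all pellets and share 45.5% and 37.5% of their windows, and Krt19 lies above 0 and shares 2.12%.

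Per kilobase of coding sequence the footprint order differed from that of RNA. With AP20187, Krt18 stood at 2581 ± 738 CPM per kilobase (SD, n = 3), Krt19 at 621 ± 16.6, Krt14 at 474 ± 73.4 and Krt8 at 444 ± 192. With vehicle, Krt18 stood at 1537 ± 454 and Krt19 at 1529 ± 263, and Krt14 followed at 771 ± 72.4 and Krt8 at 252 ± 16.2. Krt18 led in each AP20187 library, while with vehicle it led in library 1 and Krt19 led in libraries 2 and 3. By this mean Krt8 was lowest in both groups, but with AP20187 it lay within its own SD of Krt14 and Krt19, and in AP20187 library 3 it exceeded both. Its place with AP20187 depended on the scale, since per window found in no other gene its mean was above theirs.

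Ratios of counts within a library do not depend on how libraries are scaled, and they showed the same pairs. They come from the same counts as the fold changes above, so they restate the pairs and are not separate support. In RNA the log2 ratio of Krt8 to Krt18 was 0.14, 0.04 and 0.08 in AP20187 libraries 1, 2 and 3 and 0.00, -0.16 and -0.25 in vehicle libraries. The mean difference was 0.22 on the side of the type II partner, with groups that did not overlap and the smallest p that 20 splits of 3 against 3 allow (0.10, exact permutation test, 2-sided). The log2 ratio of Krt19 to Krt14 was -1.83, -2.03 and -2.05 with AP20187 and -1.70, -1.87 and -2.21 with vehicle. These groups overlapped, with a difference of -0.04 (exact permutation p = 1.00, n = 3 each). Ratios across the pairs differed by much more. The log2 ratio of Krt18 to Krt19 was 3.10, 2.28 and 3.06 with AP20187 and 0.64, 1.07 and 0.55 with vehicle, a difference of 2.06. The log2 ratio of Krt8 to Krt14, a luminal over a basal keratin, was 1.41, 0.29 and 1.09 with AP20187 and -1.06, -0.96 and -1.91 with vehicle, a difference of 2.24. It was thus above 0 in every AP20187 library and below 0 in every vehicle library. Krt8 to Krt19 differed by 2.28 and Krt18 to Krt14 by 2.02, also without overlap (exact permutation p = 0.10 for each, adjusted p = 0.112 over 18 ratios).

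In footprints the log2 ratio of Krt8 to Krt18 was -2.55, -2.48 and -2.09 with AP20187 and -2.72, -2.21 and -2.16 with vehicle. The groups overlapped and differed by -0.01 (exact permutation p = 1.00, n = 3 each). Krt18 to Krt19 was 2.19, 1.57 and 2.48 with AP20187 and 0.60, -0.44 and -0.01 with vehicle, a difference of 2.03 without overlap. Krt19 to Krt14 was 0.30, -0.10 and 0.21 with AP20187 and 0.78, 0.95 and 0.42 with vehicle, a difference of -0.58. These groups did not overlap in footprints, while they did in RNA (exact permutation p = 0.10, adjusted p = 0.138 over 18 ratios). Of the 18 ratios computed in each assay, 16 in RNA and 13 in footprints had groups without overlap. None could pass a threshold of 0.05 with 3 libraries a group. The ratios reuse the same 4 keratins and 3 marker lists, so they are not independent. How often other pairs of genes separate the groups was not computed, so these counts are a description. In RNA 2990 of 7314 genes had an unadjusted p under 0.05 by edgeR's test.

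**Figure D3:**
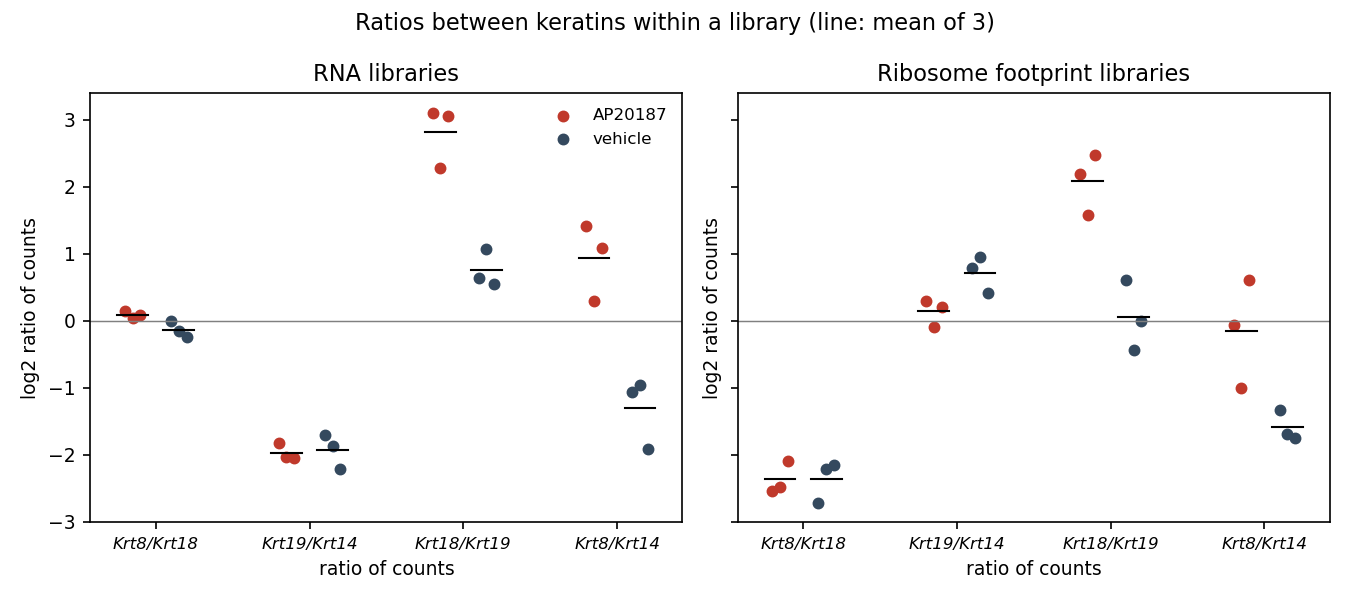
Log2 ratio of counts of 2 keratins within a library for RNA (left panel) and footprints (right panel), with a point per library, AP20187 left of vehicle, and a line at the mean of 3. In RNA, Krt8/Krt18 stays within -0.25 to 0.14 and Krt19/Krt14 within -2.21 to -1.70, while Krt18/Krt19 and Krt8/Krt14 separate the treatments by 2.06 and 2.24.

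The keratins were also set against the summed counts of 3 lists of markers in the same RNA libraries. Relative to the luminal list, Krt8 differed by -0.49 (log2, AP20187 minus vehicle) and Krt18 by -0.71, so that both were lower relative to the listed luminal markers in each AP20187 library. Relative to the same list Krt19 differed by -2.77 and Krt14 by -2.73. Relative to the basal list the differences were 1.40 for Krt8, 1.18 for Krt18, -0.88 for Krt19 and -0.84 for Krt14. Relative to the basal list as a whole, Krt14 was thus lower in each AP20187 library. None of these 8 comparisons had overlapping groups (exact permutation p = 0.10, adjusted p = 0.112). The gap was narrow for Krt8 over the luminal list, at -3.09 in AP20187 library 3 and -3.07 in vehicle library 2. The luminal sum is dominated by secretory genes: Csn3, a milk casein, made up 32.3% of it with AP20187 and 16.8% with vehicle. Trf, transferrin, made up 29.9% with AP20187 and 19.0% with vehicle. The largest part of the basal sum was Krt17 with AP20187 (22.7%) and Acta2 with vehicle (13.3%). Krt17 itself rose in RNA and shares coding windows with Krt14. Relative to epithelial junction genes, Krt8 differed by 0.71 without overlap, and Krt18 differed by 0.49 with overlap (exact permutation p = 0.200). In footprints several of these differences were smaller or overlapped. Krt8 and Krt18 over the luminal list differed by -0.49 and -0.48 with overlap (exact permutation p = 0.500 and 0.400), and over junction genes by 0.24 and 0.25 with overlap (exact permutation p = 1.00 and 0.500). Over the basal list the footprint differences were 1.18 for Krt8, 1.19 for Krt18, -0.84 for Krt19 and -0.26 for Krt14, all without overlap (exact permutation p = 0.10, adjusted p = 0.138). For Krt14 the gap was narrow, at -3.10 in AP20187 library 2 and -3.09 in vehicle library 1.

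Beyond these 4, the table held 25 other keratins. In RNA their median log2 fold change was -1.10 beside 0.01 over all genes. Of the 25, 2 rose, 8 fell and 15 did not pass, where 12.4% of all genes rose and 13.9% fell. Those that rose were Krt17 (0.89 ± 0.21, adjusted p = 0.0206), a type I keratin of basal and appendage cells, and Krt15 (1.17 ± 0.36, adjusted p = 0.0441), a type I keratin of basal cells. Krt17 averaged 1181 ± 329 CPM with AP20187 and 637 ± 58.5 CPM with vehicle (SD, n = 3 each). The direction of these basal type I keratins was thus opposite to that of Krt14. The count of rises was 0 without vehicle library 1 or 3, 1 without AP20187 library 2 or 3, and 3 without AP20187 library 1. Krt5, the type II partner of Krt14, averaged 399 ± 139 CPM with AP20187 and 229 ± 39.9 CPM with vehicle. Its log2 fold change of 0.80 ± 0.27 did not pass (adjusted p = 0.0578).

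Among the falls, Krt7 (-1.88 ± 0.30, adjusted p = 0.00755) is the other type II keratin of luminal cells. It averaged 165 ± 74.6 CPM with AP20187 and 608 ± 68.5 CPM with vehicle, so the 2 luminal type II keratins moved in opposite directions. The other falls were Krt80 (-2.11), Krt4 (-3.02), Krt23 (-2.25), Krt6a (-1.57), Krt79 (-1.10), Krt1 (-2.23) and Krt77 (-3.45), the last from very few counts. Of the 11 other keratins on chromosome 15, where Krt8 and Krt18 lie, 0 rose and 7 fell. Of the 14 others on chromosome 11, where Krt19 and Krt14 lie, 2 rose and 1 fell. Krt8 and Krt18 thus moved against the direction of each chromosome 15 keratin that passed. Of the 4 there that did not pass, Krt5 stood higher (0.80) and Krt71, Krt73 and Krt75 lower. In footprints, where 0.937% of all genes tested rose and 1.60% fell, 18 of the other keratins could be tested. None of them rose and 5 fell (Krt80, Krt4, Krt7, Krt23 and Krt1, with log2 fold changes of -3.75 to -1.83). With edgeR that count of falls was 0 without AP20187 library 1 or any vehicle library, and 3 without AP20187 library 2. The 2 largest falls rest on few AP20187 footprints. With AP20187 Krt1 (-3.75) stood at 0.531 to 0.920 CPM and Krt4 (-3.23) at 0.531 to 4.91 CPM. The floor of 3 counts was 0.272 to 0.986 CPM in these libraries.

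**Figure D4:**
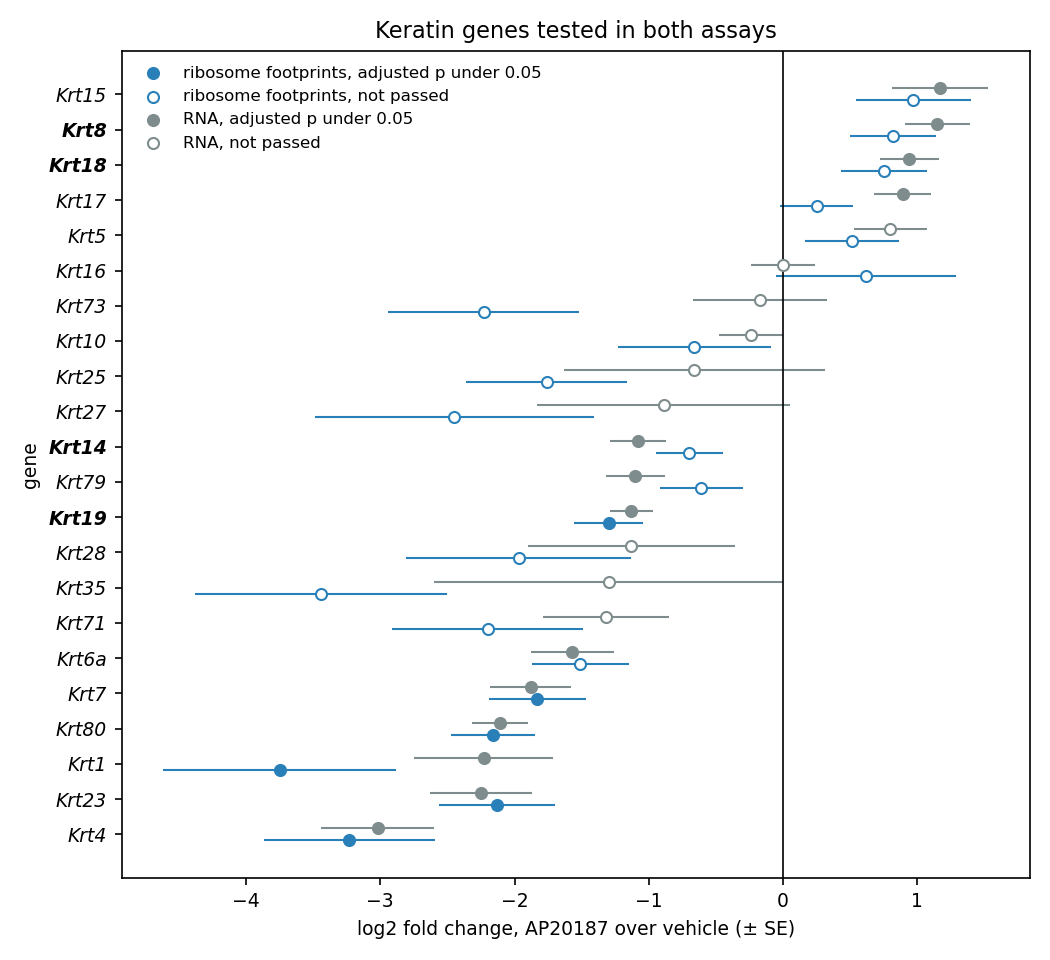
Log2 fold change (AP20187 over vehicle ± SE) of the 22 keratins tested in both assays, ordered by the RNA value, with RNA in grey and footprints in blue and filled points for an adjusted p under 0.05. The 4 genes in bold are Krt8 and Krt18, at 1.15 and 0.94 in RNA, and Krt14 and Krt19, at -1.08 and -1.13.

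Of 30 tested keratin partners, other intermediate filament proteins and the desmosomal and plakin proteins that anchor keratins (7 of them keratins counted above), 4 rose, 10 fell and 16 did not pass in RNA, with a median of -0.07. Over all genes tested 12.4% rose and 13.9% fell. Nes (nestin) rose by 1.68 ± 0.19 (log2). Des (desmin) was at -1.60 ± 0.24 and Vim (vimentin, of mesenchymal and basal cells) at -1.21 ± 0.18, both falls. The rises numbered 2 without vehicle library 1 and 1 without vehicle library 3, and the falls 6 without vehicle library 3 or AP20187 library 1. Of 18 transcription factors known to act on keratin genes, 5 rose, 1 fell and 12 did not pass (median -0.07), a share near the 26.2% called over all genes. Sox10, a factor of neural crest and some mammary epithelial cells, rose by 2.32 ± 0.34, Gata3, a factor of luminal cells, by 1.21 ± 0.34, and Tfap2c by 0.63 ± 0.15. Sp1 was the single fall, at -0.65 ± 0.17. In footprints 0 partners rose and 2 fell, and 1 factor rose and 0 fell, beside 0.937% higher and 1.60% lower over all genes. Those calls also were lost without AP20187 footprint library 1 or any one vehicle footprint library, while the block gave 3 partners higher and 5 lower, and 3 factors higher and 3 lower. The RNA counts of the factors moved by more than 1.5 times with single libraries, to between 1 and 5 rises and between 0 and 2 falls.

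The marker lists of the layers moved as mixtures too. Over all genes tested in RNA 12.4% rose and 13.9% fell, and in footprints 0.937% rose and 1.60% fell. Of 18 other luminal markers 10 rose, 3 fell and 5 did not pass (median 0.82). Krt7, counted above among the other keratins, was among the luminal falls. Rises included Cldn7 (1.27 ± 0.12) and Epcam (1.03 ± 0.14), both of cell junctions, and Ltf (1.71 ± 0.25), lactoferrin of milk. Ly6d, a surface protein of luminal progenitors, fell, at -2.32 ± 0.28. The rises numbered 6 without vehicle library 3, and the falls 5 without AP20187 library 2. Of 22 other basal markers 4 rose, 10 fell and 8 did not pass (median -0.40). The basal list holds Krt5, Krt15 and Krt17, counted above, and Krt15 and Krt17 were among its rises. Itgb4, the integrin of hemidesmosomes, was at 0.94 ± 0.16 among the rises, and Procr (-1.92 ± 0.25) and Myh11 (-1.68 ± 0.32), a smooth muscle myosin, were among the falls. The falls numbered 3 without vehicle library 1, vehicle library 3 or AP20187 library 1, and the rises 1 without vehicle library 1 or 3. Of 14 epithelial junction genes, several of them also on the luminal list, 6 rose, 2 fell and 6 did not pass in RNA (median 0.20). Without vehicle library 3 the rises numbered 3, and the falls were 0 or 1 in 5 of the 6 refits that left out a library. In footprints 0 junction genes passed, 2 luminal markers rose and 2 fell, and 1 basal marker rose and 3 fell. All of these luminal and basal calls in footprints were lost without any one of the vehicle libraries or without AP20187 library 1. With the replicate block 8 luminal markers passed as higher and 3 as lower, and 2 basal markers as higher and 9 as lower. Junction genes passing as higher numbered 3 with the block, 2 in a single fit of all 12 libraries and 1 with DESeq2. The lists were chosen with earlier results of these data known, so their directions are not independent of them.

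Markers of other cells in the gland differed between the groups as well. Over all genes tested in RNA 12.4% were higher and 13.9% lower, and in footprints 0.937% were higher and 1.60% lower. The summed RNA of 8 fibroblast markers was 1294 to 1737 CPM with AP20187 and 3394 to 5889 CPM with vehicle, with 5 of 8 lower by the test and 0 higher. For 5 endothelial markers the sum was 336 to 371 CPM with AP20187 and 608 to 818 CPM with vehicle, with 5 of 5 lower. For 5 adipocyte markers it was 48.1 to 104 CPM with AP20187 and 263 to 502 CPM with vehicle, with 3 of 5 lower. The stromal lists were thus lower in every AP20187 library, in the same direction as Krt19 and Krt14. For 10 markers of skin and hair keratinocytes the sum was 247 to 395 CPM with AP20187 and 609 to 661 CPM with vehicle, with 6 of 10 lower. For 5 immune markers (median log2 fold change -0.34) it was 1349 to 1653 CPM with AP20187 and 611 to 1196 CPM with vehicle. By the test 2 were higher, and Cd14 alone made up 82.2% of the sum with AP20187 and 57.3% with vehicle. For 7 Schwann cell markers it was 543 to 827 CPM with AP20187 and 399.7 to 488 CPM with vehicle. Sox10 made up 82.4% of that sum with AP20187, and 5 of the 7 were lower. In footprints 4 of 8 fibroblast, 2 of 5 endothelial, 1 of 4 adipocyte, 3 of 5 Schwann cell and 1 of 9 skin and hair markers were lower, 1 Schwann cell marker (Sox10) was higher, and 0 of 5 immune markers passed. These lists were only partly among the 7318 genes. Present were 8 of 12 fibroblast, 5 of 10 endothelial and 5 of 10 adipocyte markers. So were 7 of 10 Schwann cell, 5 of 14 immune and 10 of 16 skin and hair markers. None of the markers present was at 0 in all libraries of an RNA group, and the absent ones could not be judged. The part of the other cell types in the keratin changes was not tested.

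Genes most like each keratin were sought among 6694 genes by the SD, over the 12 libraries, of the log2 ratio of CPM to the keratin after centring each assay. All libraries enter, so treatment contributes to the likeness. Nearest to Krt8 were Gpd1l (SD 0.15), Krt18 (0.20) and Nadk (0.20), an NAD kinase. Krt18 was thus second of 6694 for Krt8, with an SD of 0.15 over the 6 RNA libraries and 0.25 over the 6 footprint libraries. Nearest to Krt18 were Nadk (0.15), Psmg3 (0.18) and the tight junction gene Cldn3 (0.18), and Krt8 ranked 8. For Krt19 they were Oat (0.21), Ift122 (0.24) and Dbn1 (0.24), with Krt14 at rank 22 (0.29). For Krt14 they were Sfr1 (0.16), the adhesion molecule Alcam (0.18) and Rab27a (0.19), with Krt19 at rank 73. Across the pairs the ratios varied far more, with SDs of 1.03 to 1.19.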

How the data were processed

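The deposited table holds the authors' unnormalized read counts per gene for 12 libraries. HTSeq, STAR, Bowtie2, cutadapt and bcl2fastq 1.8.3 and the build mm10 are named in the submitters' processing notes. The sources used here give neither their roles and settings nor how reads mapping to several places were treated or in which region footprints were counted. Per the labels' protocols, glands were digested with collagenase A at 1 mg/ml for 2 h at 37 °C in 100 µg/ml cycloheximide, which blocks elongation.

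CPM used TMM-scaled library sizes over the 7318 listed genes. Genes passing filterByExpr were tested with edgeR 4.0.16 (quasi-likelihood, Benjamini-Hochberg, threshold 0.05) in R 4.3.3, on the 6 libraries of an assay for the responses. All 12 libraries entered the fits for translational efficiency and for footprints over RNA. SEs were derived from the F statistic. Alternatives used DESeq2 1.42.0, limma 3.58.1 and other scalings, filters and library sets. Ratios used counts plus 0.5. Windows were matched exactly, on both strands, to annotated GENCODE M21 transcripts, and the rest of the genome was not searched. Procedures were tested on simulated counts.

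Nothing in the labels tells pooled from single mice, so the p-values cover the spread among these libraries, part of which may be technical. Same-numbered footprint libraries of the treatments deviated together only weakly (r of 0.15, 0.26 and 0.33 across genes), each being closest to its own number. Among RNA libraries (0.20, -0.05 and -0.06) this held for number 1 alone. The numbers come from the sample titles. The named genes of a list are up to 4 with the smallest p in RNA that passed, of which the text gives a selection for some lists, and other keratins were all eligible. The members and lists were chosen with earlier results of these data known.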

Additional observations from a re-analysis of the deposited data

How the results depend on the processing

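Directions of the 4 keratins in RNA and footprints held in all 14 alternatives of each response. In RNA, Krt18 missed the threshold with the replicate block (0.92, adjusted p = 0.0581) and in a single fit of all 12 libraries (0.94, adjusted p = 0.0607). The block lowered the RNA genes called lower to 661, and the single fit gave 333 higher and 330 lower. RNA libraries share only a number, and only number 1 correlated best with its own. Leaving out single libraries gave log2 fold changes of 0.99 to 1.35 for Krt8, 0.78 to 1.12 for Krt18, -1.20 to -1.01 for Krt19 and -1.17 to -0.91 for Krt14, and RNA counts of 247 to 1048 higher and 291 to 1166 lower. In footprints, Krt14 passed with DESeq2 (-0.70, adjusted p = 0.0464), the block (-0.71) and the single fit (-0.75, adjusted p = 0.0458). Footprint calls numbered 213 higher and 315 lower with DESeq2, 353 and 362 with the block, 283 and 475 in the single fit, and 0 to 84 and 0 to 123 when libraries were left out. Krt19 footprints then ranged over -1.39 to -1.14. For translational efficiency DESeq2 called 8 higher and 2 lower, leaving out libraries gave 0 to 1 higher, Krt18 ranged over -0.42 to 0.09, with the sign turned without vehicle footprint library 1 (0.09), and blocking by pellet changed no call of the 4. The vehicle footprints over RNA of Krt18 missed the threshold with RLE factors (0.73) and library totals (0.59), and ranged over 0.42 to 0.86 without single libraries. The median gene of these ratios shifted to 0.11 with AP20187 and 0.16 with vehicle by upper-quartile scaling and to -0.11 with vehicle by library totals. Of the ratios near 0, Krt19 to Krt14 in RNA ranged over -0.18 to 0.07, Krt8 to Krt18 in footprints over -0.19 to 0.09 and Krt8 to junction genes in footprints reached -0.12 without AP20187 library 3. The block changed no other call of the 4 keratins. The cause of these shifts was not tested. Leaving out a library also leaves fewer degrees of freedom.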

Other observations

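Ratios of partner and neighbour keratins were looked at after their values had been seen, and are given as values with no test. The count ratio of Krt14 to Krt5, the basal pair, was 4.19, 3.57 and 2.85 in AP20187 RNA libraries 1, 2 and 3, against 11.4, 9.65 and 18.2 in vehicle RNA libraries. In footprints it was 2.30, 1.07 and 1.14 with AP20187, against 2.64, 2.72 and 3.85 with vehicle. The basal pair was thus less lopsided in RNA with AP20187, and in both assays no AP20187 library reached the lowest vehicle library.

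The count ratio of Krt8 to Krt7, the luminal type II keratins, was 18.8, 7.64 and 30.8 in AP20187 RNA libraries, against 2.13, 2.41 and 1.33 in vehicle RNA libraries. In footprints it was 2.37, 2.55 and 10.4 with AP20187, against 0.759, 0.625 and 0.519 with vehicle. Krt7 footprints thus outnumbered those of Krt8 in each vehicle library and in none of the AP20187 libraries.

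The count ratio of Krt14 to Krt17, basal type I keratins that share coding stretches, was 1.04, 1.57 and 0.950 in AP20187 RNA libraries, against 4.67, 3.57 and 5.42 in vehicle RNA libraries. In footprints it was 0.586, 0.737 and 0.457 with AP20187, against 0.934, 1.01 and 1.57 with vehicle. Krt17 had more footprints than Krt14 in all 3 AP20187 libraries and in vehicle library 1.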
